A study of Mus musculus with 20 samples.

Results

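Noncoding RNA genes of the mouse liver are described here across 20 mice in 4 groups of 5: control mice without antibiotics, control mice with antibiotics (ABX), mice given anti-CD40 without ABX, and mice given anti-CD40 with ABX. Anti-CD40 is an antibody against CD40, which is a TNF-family receptor found on macrophages, dendritic cells and B cells. The sources used here do not give strain, age, sex, which antibiotics were used, antibody dose or schedule, or whether the antibody activates or blocks its receptor. The deposited counts were made at exon positions of a human annotation on mouse alignments, so each counted interval was read as an mm10 position and given to the mouse gene whose exons it covered. The genes described are those that the GENCODE M21 annotation types as lincRNA, antisense, processed transcript, sense intronic, sense overlapping or bidirectional promoter lncRNA, and they were chosen by their total: at least 20 counts summed over all libraries, whatever the group. There were 212 of them among 4217 mouse genes with counts: 114 lincRNA, 61 antisense, 26 processed transcript, 7 bidirectional promoter and 4 sense intronic genes, and none of the sense overlapping type.

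Long noncoding RNAs are transcribed and often spliced and polyadenylated like messenger RNAs, but are not known to be translated into a conserved protein. Some act in the nucleus, as scaffolds of nuclear bodies or at the chromosome from which they are made, some are precursors of small RNAs, and for most no function is established. Many lie beside or antisense to a protein-coding gene, and in liver, as in other tissues, they are on average less abundant and more cell-type restricted than messenger RNAs.

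The 212 genes held 104692 counts in all, 0.0845% of the counts of the 20 libraries, and each library held 4068 to 6615 of them. The 8 most counted genes held 48.3% of these counts. Of the 212 genes, 88 passed the filter on low counts and were tested, together with the other tested genes of the liver (2200 in all): 47 lincRNA, 25 antisense, 11 processed transcript, 4 bidirectional promoter and 1 sense intronic gene. The 124 untested genes had at most 140 counts each, with a median of 51.5, against a median of 406 in the tested genes. The low-count filter keeps a gene that is abundant in a single group, so a gene that passed only through the group in which it was high had to differ. Such genes include Gm48427, Gm45774, Prr33, A930001C03Rik, Gm12505, Gm15556, Gm36287, Mirt1 and Snhg6, which were too low in control mice to pass and entered through the anti-CD40 groups. Gm6135 and Gm12970 were too low in anti-CD40 mice to pass and entered through the control groups. The counts of called genes below describe the 88 genes and support nothing beyond them. The threshold for a call was 0.05 on the edgeR quasi-likelihood p, after Benjamini-Hochberg adjustment over the 2200 genes. Levels are counts per 1000000 (CPM) after TMM scaling, and changes are log2 fold changes ± SE.

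What was measured of each gene was a part of it. The tested noncoding genes were measured over a median of 404 bp, 17.3% of their exon length, and a median of 10.5% of the counted interval lay on their exons. In 15 of the 88 genes at least 50% of the counted interval lay on the gene's own exons, and in 19 the measured bases lay inside the span of a protein-coding gene. Counts come from whole rows, however, and in only 47 of the 88 genes did all rows lie outside the span of every other gene. Among genes named below, rows of Gm11963 touched the spans of Kremen1 and Znrf3, and those of Gm12970 touched Sdc3. Rows of A930038B10Rik touched Grid1, and those of Gm45774 touched Nup93. Rows of Tmem250-ps touched Nacc2, those of Tug1 Morc2a, those of Gm13522 Neb, and those of 1700028E10Rik D730045B01Rik and Gm42906. Rows of AC121973.1 touched C330002G04Rik, those of Gm12505 Gm12510, and those of Gm46123 Gm27216. Rows that touched no exon held 14.2 counts per kb over all libraries where they lay in gene spans and 6.39 per kb outside genes. Their densities were uneven, with a median of 0 in both and a 99th percentile of 437 and 45.1 per kb. Rows of the tested noncoding genes held 197 per kb, and those of all 212 genes 89.2 per kb, with a median of 28.3. As these genes were chosen by their counts, a density above that of unchosen rows was fixed by the choice. Whether the reads came from exons was not tested. The counts of a tested gene were a median of 18 times what the off-exon bases of its rows would hold at 14.2 or 6.39 per kb. In 67 of the 88 genes they were at least 5 times that. In 5 genes (Lncpint, 4930552P12Rik, Gm31728, Gm34471 and AC154178.2) the ratio was under 2, so that off-exon bases at those densities would hold over 50% of their counts; the last 4 are named for this value. Over all 212 genes, tested or not, the ratio was under 2 in 77. Counting did not use strand, so a noncoding RNA and an overlapping gene cannot be told apart. RefSeq listed 143 of the 212 symbols, 134 as lncRNA and 7 as protein-coding; 4 of the 7 were tested (Tmem250-ps, Tmem134, Gm37494 and Gm5165), and the 7 held 28.8% of the counts of the 212 genes.

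Markers of cell types differed between the groups. The summed level of 4 of 9 measured hepatocyte markers (Alb, Apob, Cps1 and Asgr1) ranged over 163391–188547 CPM in control mice without ABX and 180736–274938 CPM with ABX, against 56466–83569 CPM and 84756–111663 CPM in the corresponding anti-CD40 mice. Most of this sum is Alb; Alb, Cps1 and Asgr1 fell in both comparisons, and Apob rose, by 0.23 ± 0.08 without ABX (edgeR adjusted p = 0.0181) and 0.38 ± 0.08 with ABX (adjusted p = 0.000422). The 3 of 7 measured macrophage and monocyte markers summed to 106–240 and 109–158 CPM in control mice and to 245–971 and 283–891 CPM in anti-CD40 mice. Most of this sum is Lyz2, which rose as Ms4a7 did, while Adgre1 fell, by 2.5 without ABX (SE 0.38, adjusted p = 1.63e-05) and by 2.54 with ABX (SE 0.39, adjusted p = 2.27e-05). T cell markers (2 of 7 measured) summed to at most 1.19 CPM in control mice and to 2.84–6.91 and 3.24–6.91 CPM in anti-CD40 mice, and sinusoidal endothelial markers (3 of 6) summed to 89–145 CPM in control mice and 14.5–102 CPM in anti-CD40 mice, where Stab2 fell in both comparisons, Stab1 fell with ABX alone and Pecam1 passed in neither. In liver tissue, fewer cells of a type and less RNA per cell cannot be told apart, and the part of these shifts in the results below was not tested. Summed over the 212 genes, the level was 863 ± 51.2 CPM (SD, n = 5) in control mice without ABX and 924 ± 43.8 CPM with ABX, and 815 ± 38.7 and 786 ± 42.1 CPM in anti-CD40 mice without and with ABX.

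Per kb of measured length, Tmem134 and CT485616.1 were highest, both at 328 CPM per kb, followed by 9030622O22Rik at 240, 2210408F21Rik at 190, Tmem250-ps at 181, Gm34667 at 88.9, AC121973.1 at 88.1 and Gm46123 at 86.9 CPM per kb. These are levels per measured length and not per transcript. The counts are those of whole rows, while the length is only the part on exons, so a small part on exons raises the value. That part was 165 of 8915 bp in 9030622O22Rik, 220 of 7350 bp in Gm34667, 79 of 6486 bp in Gm46123 and 142 of 2119 bp in AC121973.1. The order therefore does not rank the genes by abundance. Tmem134 and Tmem250-ps are protein-coding in RefSeq. On this scale the highest gene that neither annotation types as coding was CT485616.1, measured on 90 of 552 bp. Tmem134 fell by 0.27 with anti-CD40 without ABX (SE 0.10, edgeR adjusted p = 0.0185, lost without mouse 9 or 17) and by 0.23 with ABX (SE 0.10, adjusted p = 0.0497, lost in 13 of 20 fits that left out a library), and 2210408F21Rik was called in neither comparison.

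Exon stretches in counted rows are shown for 5 genes that the results turn on, in the sense of the transcript, 5′ to 3′. Capitals mark exon bases in a counted row, and lower case the 18 transcript bases on a side, where the transcript goes on. Reads were counted over the whole row, so the counts need not come from the capitals. In Gm48427 the capitals are 108 of the 1972 bp of the row, and in AC121973.1 142 of 2119 bp. Positions are mm10, with exons from GENCODE M21, and other copies of these sequences in the genome were not searched for. AU020206 and Prr33 each have a further such stretch that is not printed: 115 of the 372 exon bases in counted rows of AU020206 and 94 of the 392 of Prr33 are shown.
AU020206, chr7:75771889-75772003, minus strand: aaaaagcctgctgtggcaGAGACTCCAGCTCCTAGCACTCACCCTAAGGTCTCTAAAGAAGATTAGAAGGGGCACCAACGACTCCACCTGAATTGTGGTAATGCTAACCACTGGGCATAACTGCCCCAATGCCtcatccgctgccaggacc
Gm11131, chr17:35377416-35377678, minus strand: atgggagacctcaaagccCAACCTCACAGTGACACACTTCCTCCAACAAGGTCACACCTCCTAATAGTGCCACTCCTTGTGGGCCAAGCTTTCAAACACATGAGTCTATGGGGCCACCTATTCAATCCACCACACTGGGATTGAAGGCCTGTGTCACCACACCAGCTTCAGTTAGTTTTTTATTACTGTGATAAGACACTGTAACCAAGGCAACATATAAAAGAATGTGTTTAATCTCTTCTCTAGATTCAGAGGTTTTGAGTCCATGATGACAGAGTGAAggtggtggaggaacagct
Prr33, chr7:142492132-142492225, minus strand: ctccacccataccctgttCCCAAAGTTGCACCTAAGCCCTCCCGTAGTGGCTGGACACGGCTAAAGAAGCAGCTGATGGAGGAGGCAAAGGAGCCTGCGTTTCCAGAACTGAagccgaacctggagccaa
Gm48427, chr10:96320618-96320725, plus strand: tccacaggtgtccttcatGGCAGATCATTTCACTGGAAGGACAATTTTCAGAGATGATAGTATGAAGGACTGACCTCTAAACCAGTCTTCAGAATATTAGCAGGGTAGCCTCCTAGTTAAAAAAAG
AC121973.1, chr19:23061611-23061752, plus strand: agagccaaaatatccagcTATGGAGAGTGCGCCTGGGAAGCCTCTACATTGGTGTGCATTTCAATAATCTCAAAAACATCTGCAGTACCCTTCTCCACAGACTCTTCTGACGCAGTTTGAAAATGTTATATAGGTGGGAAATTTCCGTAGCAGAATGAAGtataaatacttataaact

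The comparison of anti-CD40 with control mice without ABX asked which noncoding RNAs changed with the antibody. Of the 88 tested genes 56 were called, 34 higher and 22 lower; over all 2200 genes 60.6% were called, 31.8% higher and 28.8% lower, so the called share of the noncoding genes, 63.6%, was near the background. Their median log2 fold change was 0.09, against 0.03 over all genes, and 38 of the 56 changed at least 2-fold. Of the 47 lincRNA genes 17 were higher and 13 lower, and of the 25 antisense genes 14 were higher and 5 lower. Among the 15 genes measured with at least 50% of the interval on their own exons, 7 were higher and 5 lower.

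The clearest rise by p-value was that of AU020206, a lincRNA on chromosome 7 whose nearest protein-coding gene is Akap13; 52.7% of its counted interval lay on its exons. Its level was 7.41, 8.56, 7.16, 6.53 and 7.08 CPM in control mice without ABX and 18.3, 32.1, 26.7, 21.6 and 24.4 CPM in anti-CD40 mice. With ABX it was 5.78, 7.59, 9.67, 7.95 and 7.75 CPM in control mice and 18.2, 22.1, 23.2, 23.6 and 15.4 CPM in anti-CD40 mice. All 10 anti-CD40 mice lay above all 10 control mice. The log2 fold change was 1.75 ± 0.16 without ABX (edgeR adjusted p = 1.23e-09) and 1.41 ± 0.16 with ABX (adjusted p = 7.08e-08).

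Gm19619, a lincRNA on chromosome 5 (counted over 91280097 to 91280902, 77.1% of its interval) near Btc, the gene of the growth factor betacellulin, stood at 1.82, 4.69, 4.83, 5.79 and 7.75 CPM in control mice and at 27.9, 26.6, 18.6, 28.9 and 33.1 CPM in anti-CD40 mice without ABX. With ABX the values were 2.25, 2.17, 2.6, 3 and 5.72 CPM and 23.4, 22.4, 23.4, 19.7 and 23.5 CPM. The lowest anti-CD40 mouse lay above the highest control mouse with and without ABX. The log2 fold changes of Gm19619 were 2.45 ± 0.24 (edgeR adjusted p = 1.52e-08) and 2.84 ± 0.27 (adjusted p = 5.87e-09).

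Prr33 is typed as a lincRNA in GENCODE M21 and as lncRNA in RefSeq, and lies inside the span of Lsp1, a gene of leukocytes, on the opposite strand. Lsp1 itself was not tested, and all counted bases of Prr33 lay on its exons. Its level without ABX was 0.14, 0.323, 0, 0.148 and 0 CPM in control mice and 4.29, 4.1, 2.8, 2.78 and 2.36 CPM in anti-CD40 mice. In 2 of the 5 control mice no fragment was counted, and the groups did not overlap. Prr33 passed the low-count filter through the anti-CD40 mice, so that it differed was fixed by the filter. The log2 fold change was 4.51 ± 0.50 (edgeR adjusted p = 3.38e-08).

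Gm11131 is an antisense gene on chromosome 17 over the span of H2-Q4, a class I histocompatibility gene that could not be measured here. Its interval lay wholly on its exon. It read 0.699, 0.646, 2.33, 0.891 and 1.18 CPM in control mice and 6.27, 4.61, 8.08, 6.19 and 5.99 CPM in anti-CD40 mice without ABX; with ABX it read 2.57, 2.35, 2.6, 2.83 and 1.66 CPM and 8.29, 8.16, 9.74, 8.47 and 7.41 CPM. The anti-CD40 mice were higher than all control mice in both settings. The log2 fold changes of Gm11131 were 2.43 ± 0.27 (edgeR adjusted p = 3.09e-08) and 1.80 ± 0.24 (adjusted p = 7.61e-07). Because reads were counted without strand, reads of H2-Q4 over this exon would be counted with Gm11131.

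E230013L22Rik is a bidirectional promoter transcript whose span overlaps that of Rab20, a small GTPase gene that was not measured. E230013L22Rik was counted on chromosome 8 from 11479203 to 11479639. Its mean was 1.58 ± 0.517 CPM in control mice and 7.17 ± 1.96 CPM in anti-CD40 mice without ABX, and 2.1 ± 0.636 and 9.32 ± 1.64 CPM with ABX (SD, n = 5). The log2 fold changes were 2.16 ± 0.26 (edgeR adjusted p = 1.21e-07) and 2.13 ± 0.25 (adjusted p = 9.83e-08).

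**Figure D1:**
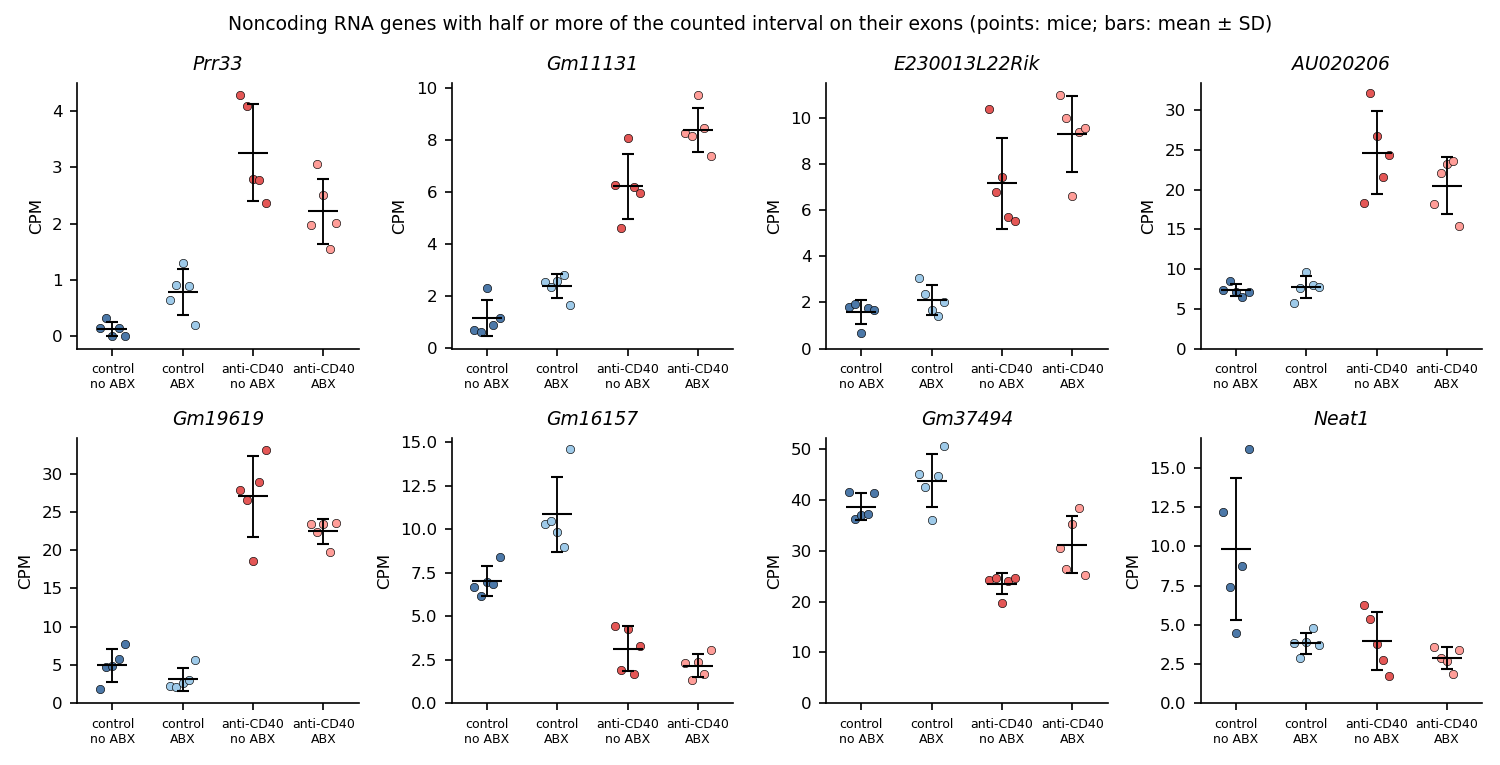
Level in CPM (y axis, from 0, a scale of its own in each panel) of 8 noncoding RNA genes measured mostly on their own exons in the 4 groups of 5 mice (x axis); points are mice and bars show mean ± SD. AU020206, Gm19619, Gm11131 and E230013L22Rik are higher in the anti-CD40 groups with and without ABX, Gm16157 and Gm37494 are lower there, and Neat1 is highest in control mice without ABX, at 9.8 ± 4.5 CPM.

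Some transcripts were counted almost only in anti-CD40 mice. Gm48427, a lincRNA on chromosome 10, had 0 counts in all 10 control mice and 180 and 100 counts in anti-CD40 mice without and with ABX. Its level was 6.27, 6.15, 1.98, 6.65 and 6.15 CPM without ABX and 1.08, 2.04, 6.13, 3.85 and 2.78 CPM with ABX, so every anti-CD40 mouse was above every control mouse. Against a floor of 3 counts over the control group this was at least 58.7-fold higher without ABX and at least 30.6-fold higher with ABX (edgeR adjusted p = 1.04e-06 and 1.41e-05). With no count in control mice, Gm48427 passed the low-count filter through the anti-CD40 groups alone. That it differed was thus fixed by the filter, and its p-values lend no support. Only 5.48% of its counted interval lay on its exon, and the row also touched the spans of Gm33782 and Gm48428.

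Gm45774, an antisense gene whose span overlaps that of the metallothionein gene Mt2, was named after its values were seen. It had 2 counts in control mice and 175 in anti-CD40 mice without ABX, a ratio of 85.6 (95% interval 23.3 to 712, counting error only), and 2 against 43 counts with ABX, a ratio of 19.7 (5.14 to 168). A single anti-CD40 mouse without ABX, mouse 16, stood at 22.4 CPM, the other 4 at 2.18, 1.81, 0.464 and 1.26 CPM. Without mouse 16 the fitted log2 fold change was 4.13 in place of 6.07. The edgeR adjusted p was 0.00043 without ABX and 0.041 with ABX, and the latter call was lost when any of 10 libraries was left out.

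Mirt1, known from heart tissue after infarction, and Dubr, known from muscle differentiation, are lincRNAs counted in 2 rows each, and in both genes both rows were higher with anti-CD40. Mirt1 without ABX was at 1.54, 1.94, 1.67, 0.148 and 0 CPM in control mice and at 10.2, 19.8, 27.9, 8.81 and 10.2 CPM in anti-CD40 mice. The groups did not overlap, and the log2 fold change of Mirt1 was 3.84 ± 0.51 (edgeR adjusted p = 1.98e-06). Mirt1 passed the low-count filter through the anti-CD40 mice, so that it differed was fixed by the filter. Dubr without ABX was at 3.77, 4.69, 4.83, 3.12 and 2.36 CPM in control mice and at 14.4, 24.7, 27.9, 11.9 and 12.8 CPM in anti-CD40 mice. Mice 17 and 18 were the highest anti-CD40 mice for both genes, and the lowest Dubr value with anti-CD40 lay above the highest in control mice. The log2 fold change of Dubr was 2.28 ± 0.29 (adjusted p = 4.45e-07).

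Other genes higher with anti-CD40 were counted on small parts of long intervals. Of these, Gm12505 and Gm15556 passed the low-count filter through the anti-CD40 mice, so that they differed was fixed by the filter. Gm12505, with 2.2% of its interval on its exons, rose from 0.839 ± 0.318 to 6.05 ± 0.933 CPM without ABX (log2 fold change 2.82 ± 0.30, edgeR adjusted p = 2.17e-08) and from 0.43 ± 0.288 to 3.7 ± 1.1 CPM with ABX (3.07 ± 0.36, adjusted p = 1.12e-07). Gm15556, antisense to the forkhead transcription factor gene Foxp4, rose from 1.06 ± 0.474 to 7.22 ± 1.09 CPM without ABX (2.74 ± 0.31, adjusted p = 5.63e-08), and Foxp4 itself rose by 1.96 ± 0.12 on the log2 scale. Gm11963 near Xbp1, a transcription factor gene of the unfolded protein response, rose by 1.75 ± 0.22 without ABX and 1.20 ± 0.23 with ABX (adjusted p = 3.07e-07 and 0.00011), and Xbp1 by 0.33 ± 0.13 and 0.51 ± 0.13. CT485616.1 overlaps the span of the peptidoglycan recognition gene Pglyrp2 on the opposite strand and was measured on 90 bp. It went from 19.8 ± 2.16 to 35.2 ± 6.66 CPM without ABX and from 20.3 ± 0.896 to 42.7 ± 4.3 CPM with ABX. These were changes of 0.83 ± 0.12 and 1.07 ± 0.12. Pglyrp2 rose by 4.41 ± 0.64 and 3.13 ± 0.50, from control means of 0.0559 and 0.248 CPM.

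Among the genes that fell, Tmem250-ps had the smallest p-value. Its level was 176, 188, 190, 208 and 199 CPM in control mice and 112, 88, 104, 109 and 113 CPM in anti-CD40 mice without ABX, a log2 fold change of −0.87 ± 0.08 (edgeR adjusted p = 9.71e-10); with ABX it was −0.72 ± 0.08 (adjusted p = 2.37e-08). The groups did not overlap in either setting. Tmem250-ps is listed as protein-coding in RefSeq, as is Gm37494, which fell by 0.72 without ABX (SE 0.11, adjusted p = 6.79e-06) and by 0.49 with ABX (SE 0.11, adjusted p = 0.000648).

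9030622O22Rik, which lies beside Foxa2, the gene of a transcription factor of hepatocytes, was at 107, 55.7, 34.8, 60.1 and 74.1 CPM in control mice and at 18.3, 18.7, 12.7, 19.6 and 15.1 CPM in anti-CD40 mice without ABX. Every anti-CD40 mouse was lower than every control mouse, and the log2 fold change was −1.97 ± 0.26 (edgeR adjusted p = 2.24e-06). With ABX the change of 9030622O22Rik was −1.03 ± 0.25 (adjusted p = 0.00188). Foxa2 fell by 1.08 without ABX (SE 0.29, adjusted p = 0.00423), and with ABX its log2 fold change was −0.10 ± 0.29 (adjusted p = 0.801).

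1700028E10Rik, a gene on chromosome 5, was at 15.4, 9.69, 16.2, 10.7 and 14.2 CPM in control mice and at 5.28, 3.71, 1.65, 4.17 and 2.21 CPM in anti-CD40 mice without ABX, a log2 fold change of −1.95 ± 0.22 (edgeR adjusted p = 7e-08), with no overlap. The fall of 1700028E10Rik lay in a row with 162 bp on its exons, which went from 12.3 to 2.59 CPM; its other row, with 1130 of its 1292 measured bp, stood at 0.872 and 0.818 CPM. Gm45470, inside the span of the adrenergic receptor gene Adrb3, was at 16.2, 13.4, 4.5, 8.76 and 12.6 CPM in control mice and at 1.32, 2.18, 1.15, 0.773 and 0.158 CPM in anti-CD40 mice, a log2 fold change of −3.26 ± 0.41 (adjusted p = 6.01e-07), again with no overlap. Gm6135 fell from 4.16 ± 2.05 to 0.289 ± 0.267 CPM (−3.81 ± 0.50, adjusted p = 5.91e-07), but its 383 counts compare with 165.0 that its off-exon bases would hold. Further falls without ABX were measured for Gm47469 (−0.79 ± 0.15), 2310010J17Rik (−0.71 ± 0.14), Gm12970 (−2.81 ± 0.54) and Gm15883, inside the span of the cytochrome P450 gene Cyp2f2 (−1.50 ± 0.30). Without mouse 17 the value of Gm12970 was −3.83. Gm34667 fell by 0.83 (SE 0.19, adjusted p = 0.000686), and D630024D03Rik had a called log2 fold change of −0.94, with 703 counts against 303.0 that its off-exon bases would hold. The 2 rows of D630024D03Rik differed: the first went from 4.75 to 1.53 CPM and the second from 0.685 to 1.30 CPM.

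Anti-CD40 mice 17 to 20 lay in a plate column of their own, so plate column and group can be told apart without ABX only through mouse 16 and control mice 9 and 10. With the plate column as a term 30 of the 88 genes were called, 22 higher and 8 lower, 29 of them among the 56, and among the genes named Gm12970, 2310010J17Rik, Gm46123, Gm16157, AC121973.1, Gm36251, Tug1, Neat1, D630024D03Rik, Gm34667, Gm36287, Tmem134, Kcnq1ot1 and Snhg6 lost the call; the fitted rise of Mirt1 was then 6.69.

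With ABX, anti-CD40 mice differed from control mice in 50 of the 88 genes, 25 higher and 25 lower, or 56.8%; over all 2200 genes 51.5% were called, 26.6% higher and 24.9% lower. Their median log2 fold change was −0.15, against 0.02 over all genes. This comparison shares no library with the one without ABX. Both called 43 genes, 24 higher in both, 19 lower in both and 0 in opposite directions, which is 76.8% of the calls without ABX and 86.0% of those with ABX. Over all 2200 genes both called 921, 8 of them in opposite directions, or 69.1% and 81.3% of the calls. Of the noncoding genes 13 were called without ABX alone, 7 with ABX alone and 25 in neither. Scaled to library totals, 30 genes were higher and 14 lower, with a median over the 2200 genes of 0.37 in place of 0.02. All 5 control mice with ABX lay in plate column 3 and all 5 anti-CD40 mice with ABX in column 4, so within these groups plate column and antibody cannot be told apart, and a plate column term rests on the other groups. With the plate column as a term the calls numbered 28, 13 higher and 15 lower, and among the genes named Prr33, 9030622O22Rik, Gm11963, Gm12970, Gm41231, Gm47431, Gm34667, Kcnq1ot1, Snhg6 and Gm48427 lost the call.

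A930001C03Rik, measured in the span of the synaptotagmin gene Syt12, was at 0.16, 0, 0, 0 and 0 CPM in control mice with ABX and at 1.26, 1.19, 1.41, 3.85 and 1.85 CPM in anti-CD40 mice with ABX. The groups were apart, with 1 count against 60, a ratio of 55 (95% interval 9.51 to 2210, counting error only; edgeR adjusted p = 7.56e-07). Without ABX its log2 fold change was 2.67 ± 0.40 (adjusted p = 4.08e-06). Gm46123 rose by 1.35 ± 0.23 with ABX (adjusted p = 2.39e-05) and by 0.63 ± 0.21 without ABX (adjusted p = 0.0118, lost without mouse 17, where it was 0.47). Gm36251 fell in both settings, by 1.26 with ABX (SE 0.21, adjusted p = 1.39e-05) and by 0.91 without ABX (SE 0.20, adjusted p = 0.000424).

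**Figure D2:**
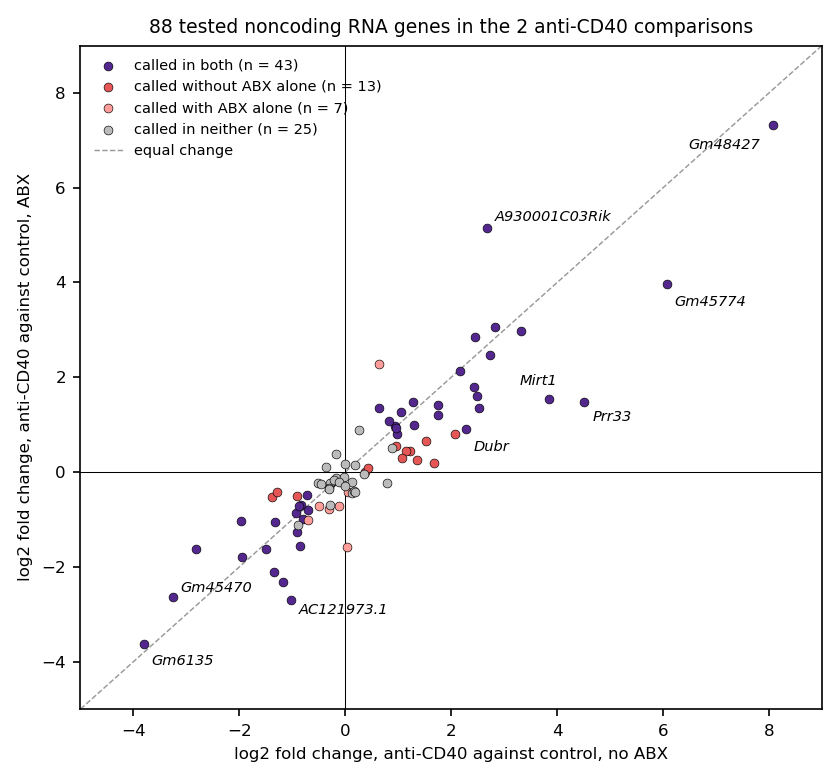
Log2 fold change of anti-CD40 against control mice without ABX (x axis) and with ABX (y axis) for the 88 tested noncoding RNA genes, coloured by the comparison in which each was called; the dashed line marks equal change. The 43 genes called in both lie in the lower left and upper right of the plot; Prr33, Mirt1, Dubr and AC121973.1 lie below the line. The fitted values of Gm48427, with no count in control mice, and of Gm45774 depend on the prior count.

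The difference between the anti-CD40 effects, with ABX minus without, was called for 4 of the 88 genes, all 4 lower, or 4.55%; over all 2200 genes 7.55% were called, 4.36% higher and 3.18% lower. At an unadjusted p under 0.05 there were 14. The 4 genes were Prr33, AC121973.1, Dubr and Gm16157. Prr33 and Dubr rose less with ABX than without, and AC121973.1 and Gm16157 fell more. With the plate column as a term 0 of the 88 genes were called.

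Prr33 with ABX was at 0.642, 0.903, 1.3, 0.884 and 0.185 CPM in control mice and at 1.98, 3.06, 2.51, 1.54 and 2.01 CPM in anti-CD40 mice, so the groups were apart with ABX as well. The control mice with ABX lay higher than those without, in 4 of 5 mice above all of them. Its change with ABX was 1.48 ± 0.39 (edgeR adjusted p = 0.00271), and the difference of effects was −3.03 ± 0.70 (adjusted p = 0.0122). The difference rests on control mice without ABX near the floor, at 0.14, 0.323, 0, 0.148 and 0 CPM, so its size is uncertain. It was called in 20 of 20 fits that left out a library, which does not remove this limit. With the plate column as a term its edgeR adjusted p was 0.139.

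AC121973.1, a lincRNA on chromosome 19, was at 21.1, 23.8, 16, 16.6 and 17.7 CPM in control mice without ABX and at 10.7, 8.19, 5.11, 13.1 and 9.46 CPM in anti-CD40 mice. With ABX it was at 15.6, 22.2, 16.7, 14.5 and 24.9 CPM in control mice and at 3.06, 3.57, 3.93, 0.616 and 3.24 CPM in anti-CD40 mice. The 5 anti-CD40 mice with ABX were the lowest of all 20 mice. AC121973.1 fell by 1.03 without ABX (SE 0.25, edgeR adjusted p = 0.00112) and by 2.70 with ABX (SE 0.29, adjusted p = 5.64e-08), a difference of −1.67 ± 0.38 (adjusted p = 0.0127). The adjusted p of the difference was 0.0664 without mice 14, 15, 19 and 20, and 0.17 with the plate column as a term; it was measured on 142 bp, 6.7% of its interval.

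Dubr with ABX was at 3.85, 5.42, 4.84, 4.77 and 3.87 CPM in control mice and at 11.9, 9.69, 11, 4.31 and 5.71 CPM in anti-CD40 mice, which overlap. Its change with ABX was 0.90 ± 0.30 (edgeR adjusted p = 0.0149), and the difference of effects was −1.39 ± 0.42 (adjusted p = 0.0426), lost in 12 of 20 fits that left out a library. Gm16157, an antisense gene on chromosome 7 over the span of Fam169b, fell by 1.17 without ABX (SE 0.24) and by 2.31 with ABX (SE 0.25, adjusted p = 2.6e-08). Its difference of −1.13 ± 0.35 (adjusted p = 0.0486) was lost in 17 of 20 such fits. For Mirt1 with ABX the level was 1.44, 0.903, 0.186, 2.12 and 2.03 CPM in control mice and 2.7, 4.08, 6.28, 3.23 and 3.4 CPM in anti-CD40 mice, a change of 1.54 ± 0.56 (adjusted p = 0.0256, lost without mouse 2, 3 or 13). Its difference of effects, −2.29 ± 0.80, had an adjusted p of 0.0884.

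In control mice, ABX against no ABX was called for 13 of the 88 genes, 9 higher and 4 lower, or 14.8%; over all 2200 genes 6.68% were called, 3.45% higher and 3.23% lower. Scaled to library totals 8 were called, 4 higher and 4 lower, and with the plate column as a term 4. Gm41231 was at 10.8, 5.98, 13.5, 7.57 and 13 CPM without ABX and at 17.6, 19.3, 22.9, 18.4 and 20.3 CPM with ABX, with no overlap, a log2 fold change of 0.96 ± 0.18 (edgeR adjusted p = 0.0026). A930038B10Rik was at 3.07, 2.1, 3.83, 3.12 and 4.89 CPM without ABX and at 8.18, 6.87, 7.07, 6.89 and 8.3 CPM with ABX, also apart, a change of 1.14 ± 0.25 (adjusted p = 0.00714). Both were called in 20 of 20 fits that left out a library and with the plate column as a term.

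Tug1 is a long noncoding RNA broadly expressed in mouse tissues and typed as antisense in GENCODE M21. It was at 41.8, 35.4, 42.3, 38.6 and 39.8 CPM in control mice without ABX and at 54.5, 53.7, 49.9, 54.3 and 45 CPM with ABX. The groups were apart but by a small step, 0.38 ± 0.09 on the log2 scale (edgeR adjusted p = 0.00976). Scaled to library totals in place of TMM, its change was 0.25 (adjusted p = 0.13). Gm47431 rose by 1.0 ± 0.24 (adjusted p = 0.0122), and Prr33 by 2.47 ± 0.62 (adjusted p = 0.0185, lost without mouse 3). The value of Prr33 rests on control mice without ABX near the floor, at no more than 0.323 CPM. Gm11131 rose by 1.07 ± 0.30 (adjusted p = 0.03), a call lost without any 1 of 8 libraries.

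The 4 genes lower with ABX in control mice were Neat1, A930001C03Rik, Gm46123 and 2900052L18Rik. A930001C03Rik had 16 counts without ABX and 1 with, a ratio of 14.1 (95% interval 2.19 to 591, counting error only; edgeR adjusted p = 0.0249, lost in 6 of 20 fits that left out a library). Gm46123 fell by 0.85 (SE 0.24, adjusted p = 0.0297) and 2900052L18Rik by 0.75 (SE 0.22, adjusted p = 0.0359), and each call was lost in 7 of 20 such fits.

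In anti-CD40 mice, ABX against no ABX was called for 11 of the 88 genes, 6 higher and 5 lower, or 12.5%; over all 2200 genes 15.9% were called, 8.68% higher and 7.23% lower. The 5 lower genes were AC121973.1, Mirt1, Dubr, Gm36287 and Pvt1. AC121973.1 fell by 1.69 (SE 0.30, edgeR adjusted p = 0.000569), Mirt1 by 1.96 (SE 0.43, adjusted p = 0.00397), Dubr by 1.11 (SE 0.26, adjusted p = 0.00577), Gm36287 by 1.48 (SE 0.33, adjusted p = 0.00308) and Pvt1 by 1.06 (SE 0.26, adjusted p = 0.00619). Gm36287 was at 1.98, 3.46, 3.79, 2.63 and 2.36 CPM without ABX and at 0.901, 1.36, 0.785, 0.616 and 1.39 CPM with ABX. Pvt1, the transcript beside the Myc oncogene, was at 3.3, 4.74, 5.11, 4.17 and 3.15 CPM without ABX and at 3.06, 2.04, 1.57, 2.16 and 1.08 CPM with ABX. In neither gene did the mice with ABX overlap those without. Gm36287 passed the low-count filter only through the anti-CD40 mice without ABX, so that it differed was fixed by the filter.

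Of the 6 genes higher with ABX in anti-CD40 mice, Gm37494 rose by 0.41 ± 0.11 (edgeR adjusted p = 0.0174), Gm34667 by 0.67 ± 0.19 (adjusted p = 0.0197) and D630024D03Rik by 0.91 ± 0.24 (adjusted p = 0.0137). 1700028E10Rik rose by 0.80 ± 0.24 (adjusted p = 0.0262) and A930038B10Rik by 0.80 ± 0.24 (adjusted p = 0.0276), and the sixth, Gm13522, named after its values were seen, by 1.07 ± 0.33 (adjusted p = 0.0289). The calls of Gm37494 and D630024D03Rik were lost without mouse 14, and those of the other 4 without mouse 14 or 18, among others. With mouse 14 left out 0 genes were called higher and 7 lower. With the plate column as a term 1 of the 88 genes was called, which was none of these 11.

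**Figure D3:**
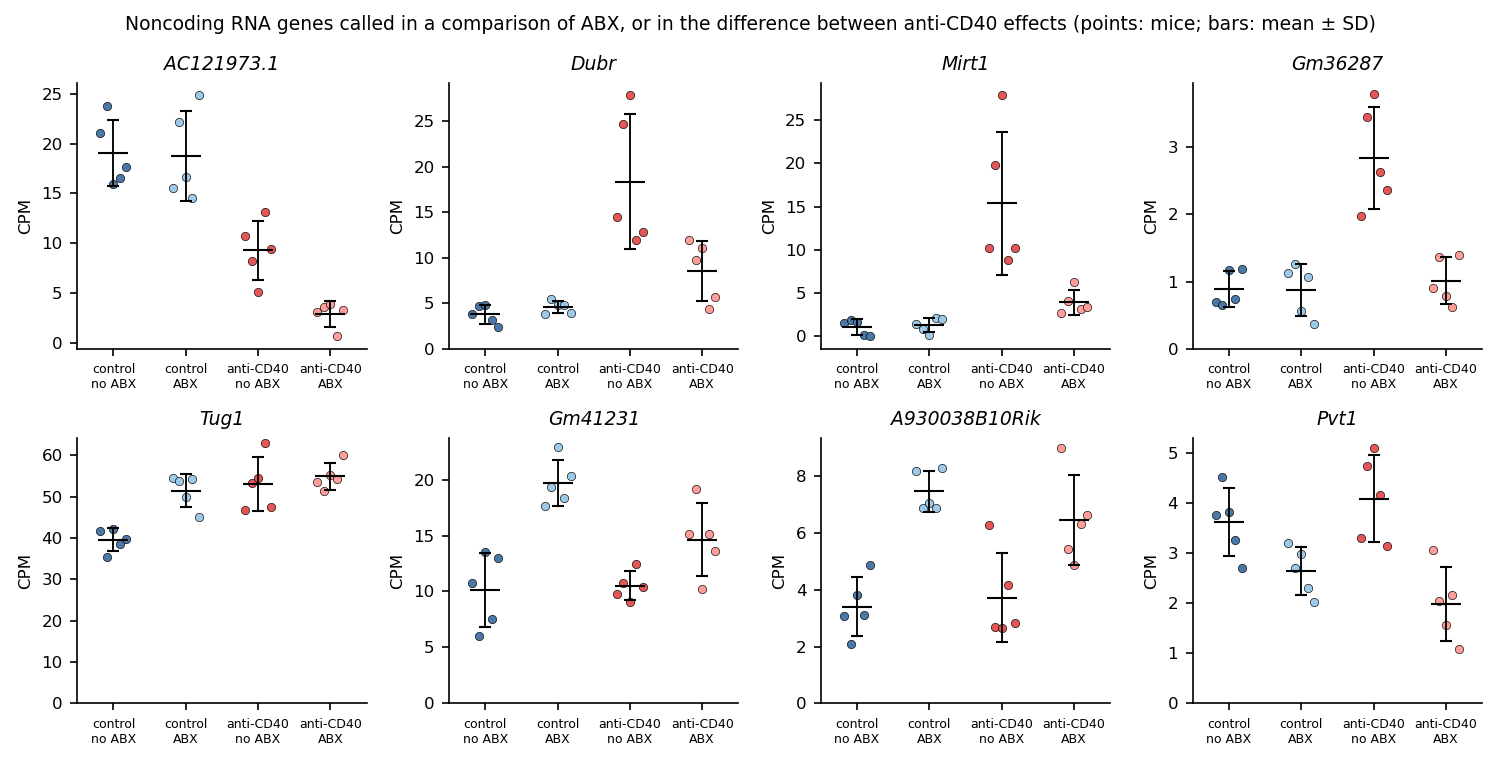
Level in CPM (y axis, from 0, a scale of its own in each panel) of 8 noncoding RNA genes in the 4 groups of 5 mice (x axis); points are mice and bars show mean ± SD. AC121973.1 is lowest in anti-CD40 mice with ABX, at 2.88 ± 1.31 CPM, Dubr and Mirt1 are highest in anti-CD40 mice without ABX, at 18.3 ± 7.41 and 15.4 ± 8.25 CPM, and Gm41231 and A930038B10Rik are higher with ABX in control mice.

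Noncoding RNAs of known roles were read from lists by function, of 80 symbols in all, of which 13 are among the 212 genes described here. Some symbols stand in more than 1 list. Over all 2200 genes 60.6% were called with anti-CD40 without ABX and 51.5% with ABX, so nothing is read from the counts of called genes per list. Of the nuclear architecture list (9 symbols), 4 were tested: without ABX 2 rose, 1 fell and 1 did not pass; with ABX 1 rose and 3 did not pass. Neat1, the scaffold of paraspeckles, was measured on 4925 bp between 5827749 and 5839731 of chromosome 19, and 90.2% of its counted interval lay on its exons. It was at 12.2, 7.43, 4.5, 8.76 and 16.2 CPM in control mice without ABX, and at 6.27, 5.38, 3.79, 2.78 and 1.73 CPM in anti-CD40 mice without ABX. With ABX it was at 3.85, 2.89, 3.91, 4.77 and 3.69 CPM in control mice and at 3.6, 2.89, 2.67, 1.85 and 3.4 CPM in anti-CD40 mice. Control mice without ABX were highest and varied most, and 1 of them, at 4.5 CPM, lay within the range of the anti-CD40 mice. The log2 fold change of Neat1 with anti-CD40 was −1.29 ± 0.30 without ABX (edgeR adjusted p = 0.000729) and −0.41 ± 0.34 with ABX (adjusted p = 0.332), and ABX against no ABX in control mice gave −1.35 ± 0.31 (adjusted p = 0.00904). With the plate column as a term the adjusted p of the first and last became 0.168 and 0.0747. The 2 rows of Neat1 differed with ABX. The row with 576 bp on its exons went from 0.888 to 0.0977 CPM with anti-CD40 (25 and 3 counts), and the other from 2.93 to 2.78 CPM. Without ABX both rows fell, from 2.45 to 0.646 and from 7.36 to 3.35 CPM. Pspc1, which codes for a paraspeckle protein, rose by 1.32 ± 0.17 without ABX (edgeR adjusted p = 5.06e-07) and did not pass with ABX (0.35 ± 0.18, adjusted p = 0.101).

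Tug1 rose with anti-CD40 without ABX, by 0.42 ± 0.09 (edgeR adjusted p = 0.000183), to 46.9, 53.4, 54.6, 62.9 and 47.4 CPM; with ABX its change was 0.09 ± 0.09 (adjusted p = 0.379), or 0.44 with an adjusted p of 0.000768 when scaled to library totals. Kcnq1ot1, the antisense transcript of the imprinted Kcnq1 domain, went from 2.59 ± 0.907 to 5.1 ± 1.03 CPM without ABX, a log2 fold change of 0.97 ± 0.27 (adjusted p = 0.00382), and rose by 0.80 ± 0.27 with ABX (adjusted p = 0.0167, lost without mouse 13). Its 7 counted rows lay wholly on its exon but differed: the row spanning 143222037 to 143223079 went from 0.0936 to 1.27 CPM without ABX, and the row spanning 143244093 to 143270854 from 1.55 to 1.62 CPM. Firre, an X-linked nuclear long noncoding RNA typed as processed transcript, had a change of −0.09 ± 0.14 (adjusted p = 0.588), and did not pass with ABX either (adjusted p = 0.22).

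Of the X inactivation list (5 symbols) 2 genes were tested and neither passed in either setting; Jpx, an activator of Xist, had an adjusted p of 0.522 without ABX and 0.145 with ABX. Snhg6, the 1 tested host gene of small nucleolar RNAs, rose by 1.06 ± 0.37 without ABX (edgeR adjusted p = 0.0168, lost without mouse 8 or 18) and by 1.26 ± 0.44 with ABX (adjusted p = 0.0185, lost without mouse 2 or 13). Lncpint, the 1 tested microRNA host, did not pass (0.79 ± 0.47, adjusted p = 0.154 without ABX). Of the immune or stress list (20 symbols, 5 tested), Tug1 and Mirt1 rose, Neat1 fell and 2 did not pass without ABX, and Mirt1 alone of the 5 passed with ABX; Pvt1 was among those that did not pass with anti-CD40 (adjusted p = 0.534 and 0.193). No gene of the liver and metabolic list of 12 symbols was measured with 20 counts.

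Among 26 genes whose proteins bind noncoding RNAs or degrade RNA, 6 were tested. Pspc1, the splicing factor gene Srsf1 and Nop56, a core protein gene of small nucleolar particles, rose without ABX and the other 3 did not pass. Over all 2200 genes 60.6% were called in that comparison. For Pspc1 the difference between the anti-CD40 effects, with ABX minus without, was −0.97 ± 0.25 (edgeR adjusted p = 0.0191). With ABX Srsf1 rose by 0.66 and Nop56 by 0.72, Smg1, a kinase gene of nonsense-mediated decay, rose by 0.51, and Smg6, an endonuclease gene of the same pathway, fell by 0.82.

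The noncoding genes were set beside their protein-coding neighbours where both were tested. In 12 pairs the spans overlapped; both genes were called in 6 pairs without ABX, all 6 in the same direction, and in 5 pairs with ABX, 4 in the same direction. In 23 further pairs the protein-coding gene was the nearest; both were called in 6 pairs without ABX, 4 in the same direction, and in 5 with ABX, all 5 in the same direction. With 60.6% and 51.5% of all tested genes called in the respective comparisons, many pairs of any kind would have both genes called, and nothing is read from these counts. Reads of overlapping genes cannot be told apart without strand.

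Gm45338, in the span of the interferon-induced gene Rtp4, had a log2 fold change of −0.30 without ABX (edgeR adjusted p = 0.158), and Rtp4 rose by 3.24 ± 0.24. 4632415L05Rik had a log2 fold change of −0.18 (adjusted p = 0.404), and its nearest gene Cp, which codes for ceruloplasmin, rose by 2.31 ± 0.14. Gm48161 fell by 1.32 (SE 0.34) and Agtr1a, the angiotensin receptor gene in whose span it lies, by 1.65 (SE 0.13). Mirt1 and its neighbour Smndc1 both rose, by 3.84 ± 0.51 and 1.45 ± 0.40. The pairs of Gm45338, 4632415L05Rik and Gm48161 were named after their values were seen.

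**Figure D4:**
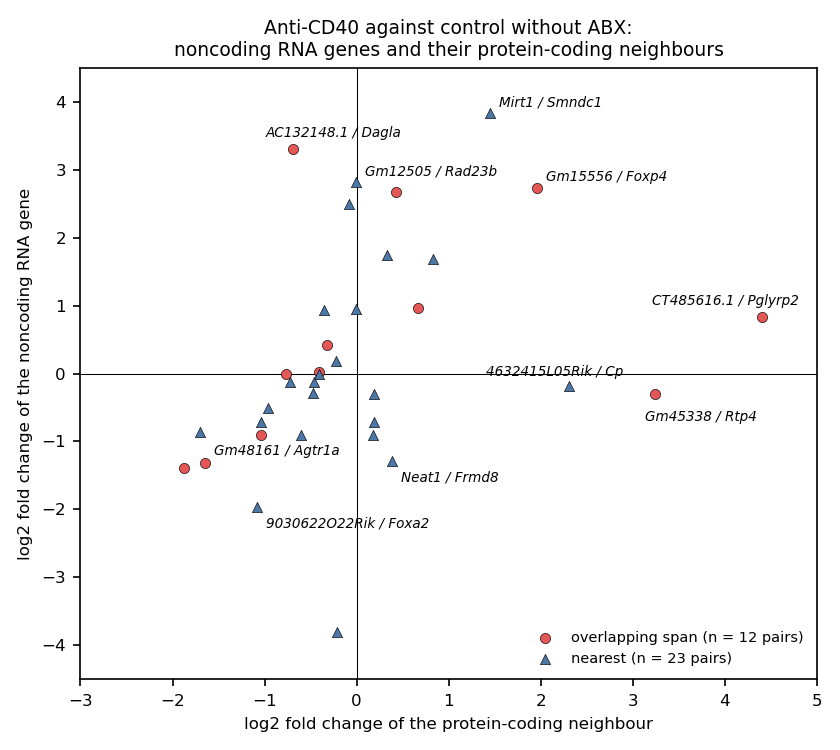
Log2 fold change of the protein-coding neighbour (x axis) and of the noncoding RNA gene (y axis), anti-CD40 against control mice without ABX; circles are the 12 pairs whose spans overlap and triangles the 23 pairs of nearest genes. Gm15556 and Foxp4 lie high on both axes, Gm45338 and 4632415L05Rik lie near 0 while their neighbours Rtp4 and Cp rise, and Gm12505 rises while Rad23b lies near 0.

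Promoters were read from RefSeq (GRCm38.p6, the mm10 assembly) over 250 bases before to 50 after the start, and held 88 of the 212 genes, 43 of them tested. They were searched on both strands for a kappaB motif, the interferon-gamma activated site (TTCNNNGAA), the interferon-stimulated response element, an HNF4 motif (CAAAGTCCA) and a FOXA motif (TGTTTAC), which 0.411%, 8.3%, 3.44%, 0.475% and 3.65% of all 32851 promoters hold, in that order. Of the 17 matched genes that were higher with anti-CD40 without ABX, 2 held the activated site, Dubr and 4930552P12Rik, and 0 any other motif. Of the 10 that were lower, 1 held the FOXA motif, 9030622O22Rik, and of the 16 not called, 2 held the activated site, 1 the HNF4 and 1 the FOXA motif. A match describes letters in a window and not a bound site. The promoters of Dubr and 9030622O22Rik are printed in the sense of the gene, with the match in capitals, because the values of both genes are given by mouse above; that of 4930552P12Rik is not printed.
Dubr, chr16:50732724-50733023, minus strand: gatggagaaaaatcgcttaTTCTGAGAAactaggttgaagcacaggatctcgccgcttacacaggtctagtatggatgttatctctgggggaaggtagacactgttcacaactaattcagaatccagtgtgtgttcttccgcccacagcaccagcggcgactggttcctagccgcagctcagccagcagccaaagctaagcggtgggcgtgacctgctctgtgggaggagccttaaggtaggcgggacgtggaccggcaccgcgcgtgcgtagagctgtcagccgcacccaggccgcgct
9030622O22Rik, chr2:148040299-148040598, minus strand: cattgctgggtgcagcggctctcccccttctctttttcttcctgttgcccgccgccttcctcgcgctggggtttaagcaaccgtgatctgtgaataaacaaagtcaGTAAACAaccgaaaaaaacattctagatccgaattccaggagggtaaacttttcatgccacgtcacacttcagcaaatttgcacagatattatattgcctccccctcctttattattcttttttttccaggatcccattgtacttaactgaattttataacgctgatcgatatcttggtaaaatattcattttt

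Genes at the limit of 20 counts were AC132253.9 and Gm8013, just inside with 20 counts, and Gm13964 with 19 and Gm42849 and 5031425F14Rik with 18, just outside. Of the 13 listed genes among the 212, Ftx, Trp53cor1, Ptgs2os2 and Mir99ahg did not pass the filter; C920009B18Rik of the immune or stress list, with 63 counts and also untested, is typed as a pseudogene and is not among the 212. Trp53cor1, the p53-induced lincRNA near Cdkn1a, had 12 and 9 counts in the control groups (no ABX, then ABX) and 42 and 21 in the anti-CD40 groups. Ptgs2os2, near the cyclooxygenase gene Ptgs2, had 2, 0, 24 and 14 counts in the same order, Ftx, a microRNA host beside Xist, had 42, 33, 31 and 33, and Mir99ahg had 1, 8, 6 and 6. At the off-exon densities given above, the off-exon bases would hold 35.4 of 40 counts in Ptgs2os2 and 33.2 of 84 in Trp53cor1. For Ftx they would hold 12.9 of 139, and for Mir99ahg 41.7, more than its 21 counts.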

How the data were processed

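Liver RNA of 20 individual mice was extracted with trizol from snap-frozen sections and made into Illumina libraries, per the labels' protocols. The submitters' processing notes name Trimmomatic 0.38, HISAT2 2.1.0 and the mm10 build. The deposited counts, 1 table per library, are whole numbers that the authors made, per the file headers, with paired-end featureCounts 1.5.0-p2 over the exons of a human GRCh38 annotation, summed by gene and without a strand option. The counts are not normalized.

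The human identifiers carry no meaning for mouse reads. Row intervals were read as mm10 positions and intersected with GENCODE M21 exons (bedtools 2.31.1), and a row counted for a gene if it overlapped the exons of that gene alone by 50 bp or more. Of 58395 rows 18918 had counts and 7463 were attributed, to 5552 genes; the rows that touched more than 1 gene, with 52.3% of counts, were not used. Of 811 noncoding genes attributed, 338 had 0 counts and 261 had 1 to 19.

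Totals over all rows, 5053014 to 7618736 per library, served as library sizes. All attributed genes were fitted together with edgeR 4.0.16 in R 4.3.3 (TMM, filterByExpr, robust quasi-likelihood F-test, two-sided, 1 mean per group; biological coefficient of variation 16.7%), and p-values were adjusted over the 2200 genes that passed the filter. The fit was tested on simulated data. Nothing in the labels gives litters or cages, and each mouse is taken as a replicate of its group. DESeq2 1.42.0, library totals, no filter, other attribution rules, plate column and leaving out libraries were alternatives. Intervals of count ratios are exact 95% intervals and, like the floor of 3 counts, cover counting error only.

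The noncoding genes, the lists by function and the cell type markers were chosen with earlier results of these data known. Named genes are, per anti-CD40 comparison, the 10 called genes with the smallest p in each direction, for each other comparison 5, the 8 highest per measured kb, and all listed genes with at least 20 counts; others are marked as named after their values were seen.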

Additional observations from a re-analysis of the deposited data

Results flagged for a closer look

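The difference between the anti-CD40 effects, with ABX minus without, passed the edgeR test in 4 noncoding RNA genes: Dubr at −1.39, Prr33 at −3.03, Gm16157 at −1.13 and AC121973.1 at −1.67 on the log2 scale. All 4 lost the call with the plate column as a term.

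In 8 of 176 groups of 5 mice tested a single mouse stood apart from the other 4 on the log2(CPM + 0.5) scale, 4.55%, where chance flags about 1 in 20. With anti-CD40 and ABX, mouse 14 was lowest for Gm19619 at 19.7 CPM (the others at 22.4 to 23.5) and for AC121973.1 at 0.616 CPM (3.06 to 3.93), and mouse 12 was lowest for Kcnq1ot1 at 2.21 CPM (5.56 to 6.91). With anti-CD40 without ABX, mouse 18 was lowest for Gm48427 at 1.98 CPM (6.15 to 6.65) and for Gm37494 at 19.8 CPM (24 to 24.7). Among control mice, mouse 8 without ABX was lowest for E230013L22Rik at 0.666 CPM (1.68 to 1.94), mouse 2 with ABX was lowest for 2900052L18Rik at 3.61 CPM (6.26 to 7.2), and mouse 1 with ABX was the only 1 of its group with a count of A930001C03Rik, at 0.16 CPM.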

How the results depend on the processing

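No paired analysis was possible because no mouse number is shared between groups. Against 56 noncoding genes called with anti-CD40 without ABX, 88 were called with no low-count filter, 13 where 50% of the interval had to lie on the exons, 29 where no base could lie in another gene's span and 30 with the plate column as a term; the first tests 212 genes and the next 2 test 16 and 49. Against 50 with ABX, those 3 gave 11, 25 and 28. The difference of effects (4 genes) gave 2 with library totals, 1, 2 and 0. ABX in control mice (13) gave 8 with library totals, 4, 7 and 4, and ABX in anti-CD40 mice (11) gave 1 with 50% of the interval on the exons, 1 with the plate column and 4 without mice 14, 15, 19 and 20, an alternative chosen after seeing the data. DESeq2 and a 1-bp overlap kept every count within 1.5 times. Leaving out 1 library gave 53 to 58, 43 to 52, 2 to 4, 6 to 14 and 7 to 12 calls in the 5 comparisons. The lowest counts were 6 without mouse 3 or 4 and 7 without mouse 14 or 18, and the difference of effects gave 2 without any 1 of mice 2, 3, 4, 5, 6, 9, 10, 14 and 18. Of named genes 3 changed sign, the cause of which was not tested: with the plate column Gm47431 with ABX (0.05, adjusted p = 0.956) and Snhg6 without ABX (−0.25, adjusted p = 0.845), and with library totals Tmem134 with ABX (0.12, adjusted p = 0.253). Without mice 14, 15, 19 and 20 Snhg6 lost its call without ABX. The shares of all genes called under these alternatives are not given here, so the counts describe the noncoding genes alone. Depth limited 124 genes with at most 140 counts to a description.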

Other observations

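Among the 124 untested genes some had counts in one treatment only or nearly so; these were named after their values were seen and are given with no test. Gm28068, a gene on chromosome 15 near Ly6a, the gene of the surface protein Sca-1, with its whole interval on its exon, had 1 count in each control group, 20 counts in anti-CD40 mice without ABX and 56 with ABX. Its level with ABX was 1.44, 1.19, 2.36, 2.62 and 1.39 CPM, and without ABX 0.99, 0.384, 1.15, 0 and 0.63 CPM. Gm20442, on chromosome 17, had 107 counts in anti-CD40 mice without ABX, at 2.14, 0.64, 5.94, 7.42 and 0.788 CPM, against 4 counts in anti-CD40 mice with ABX and 1 and 0 in control mice. 1700011B04Rik had 0 counts in both control groups and 23 and 10 in anti-CD40 mice without and with ABX. 9530020I12Rik had 23 counts in control mice without ABX, 15 in those with ABX, and 0 in both anti-CD40 groups, and Gm35533 had 54 and 49 in control mice and 7 and 3 in anti-CD40 mice. The 33 counts of 1700011B04Rik are fewer than the 180.4 that its off-exon bases would hold at the off-exon densities given above. For Gm20442, 9530020I12Rik and Gm35533 the values were 112, 38 and 113 counts against 26.7, 6.3 and 3.3.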
